A study of Mus musculus with 2 samples.

Results

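The Hippo pathway genes examined in mouse sciatic nerve comprised the coactivator genes Yap1 and Wwtr1, the transcription factor genes Tead1, Tead2 and Tead3, the kinase genes Lats1 and Lats2, and the target genes Ctgf, Cyr61 and Ankrd1. These 10 genes were chosen by symbol from 22093 genes with usable values in both libraries, and all 10 were found, each on 1 entry. Nerves were taken at postnatal day 7 from mice of a mixed strain, and RNA was sequenced in 1 control and 1 Tsc1cKO library. Tsc1 encodes a subunit of the TSC complex, which restrains the growth kinase complex mTORC1. The names under which the tables were deposited describe the control as carrying 1 conditional and 1 wild-type copy of Tsc1, the Tsc1cKO as carrying conditional copies only, and both as carrying Dhhcre. In this Cre line the promoter of desert hedgehog drives the recombinase in the Schwann cell lineage, so control Schwann cells would also have lost 1 copy of Tsc1. How many animals stood behind a library is not given in the labels used here.

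The Hippo pathway is a kinase cascade that limits organ growth. MST kinases activate LATS1 and LATS2, which phosphorylate the coactivators YAP (from Yap1) and TAZ (from Wwtr1) and keep them out of the nucleus. When LATS activity is low, YAP and TAZ enter the nucleus, bind TEAD factors on DNA and switch on genes such as Ctgf, Cyr61 and Ankrd1. In Schwann cells, YAP and TAZ are known to be needed for axon sorting and myelination, and TEAD1 is known to act on myelin genes. Because the cascade acts mainly by phosphorylation, mRNA levels of its members do not measure its activity.

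TEAD factors bind the motif GGAATG, searched here on both strands (GGAATG or CATTCC) in windows from 250 bases before to 50 bases after each RefSeq gene start in GRCm38.p6. Windows were matched for 8 members, all but Tead1 and Ctgf, and 6 of these had the motif in at least 1 window. Of all 27025 genes with a window 16.6% had it, and 14.7% of the 32851 windows. Some genes have several windows, and the count over genes gives them more chances. The 250 bases before the start are printed 5′ to 3′ for the targets Cyr61 (listed as Ccn1) and Ankrd1, because they are standard readouts of YAP and TAZ, for Wwtr1, the most abundant member, and for Tead2 and Tead3, whose levels differed most between the libraries. Capitals mark the motif.
Cyr61 (minus strand, chr3:145649986-145650235): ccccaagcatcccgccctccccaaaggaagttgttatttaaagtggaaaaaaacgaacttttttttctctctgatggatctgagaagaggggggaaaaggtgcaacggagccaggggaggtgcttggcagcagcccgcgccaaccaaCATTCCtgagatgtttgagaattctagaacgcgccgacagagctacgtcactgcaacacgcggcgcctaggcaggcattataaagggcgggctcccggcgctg
Ankrd1 (minus strand, chr19:36119845-36120094): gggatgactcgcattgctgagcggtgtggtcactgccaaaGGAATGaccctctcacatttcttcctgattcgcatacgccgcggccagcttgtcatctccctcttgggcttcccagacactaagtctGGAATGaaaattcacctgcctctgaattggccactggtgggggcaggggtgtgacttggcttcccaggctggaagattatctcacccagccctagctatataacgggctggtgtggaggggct
Wwtr1 (minus strand, chr3:57575911-57576160): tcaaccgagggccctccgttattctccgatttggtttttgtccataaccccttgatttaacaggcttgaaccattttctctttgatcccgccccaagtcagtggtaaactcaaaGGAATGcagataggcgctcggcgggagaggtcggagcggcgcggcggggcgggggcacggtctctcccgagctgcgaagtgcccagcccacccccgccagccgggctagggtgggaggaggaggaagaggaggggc
Tead3 (minus strand, chr17:28350601-28350850): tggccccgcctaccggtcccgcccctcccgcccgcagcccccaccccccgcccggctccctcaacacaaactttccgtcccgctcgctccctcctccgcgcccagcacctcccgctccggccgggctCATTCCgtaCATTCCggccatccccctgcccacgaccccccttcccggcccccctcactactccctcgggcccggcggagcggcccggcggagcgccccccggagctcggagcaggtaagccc
Tead2 (plus strand, chr7:45215542-45215791): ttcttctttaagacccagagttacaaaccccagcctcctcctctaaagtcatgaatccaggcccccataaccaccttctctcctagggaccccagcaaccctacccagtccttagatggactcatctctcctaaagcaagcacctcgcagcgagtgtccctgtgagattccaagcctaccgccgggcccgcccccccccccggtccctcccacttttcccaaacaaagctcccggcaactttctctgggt

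The motif began 103 bases before the start of Cyr61 and at 210 and 123 bases before that of Ankrd1. In Wwtr1 it began 136 bases before the start shown, and in Yap1, not printed, 141 bases before. Tead3 had 3 windows, and the one shown held copies at 123 and 114 bases before the start and another 3 bases after it. Of its other windows, 1 held a copy 182 bases before the start and the other held none. Lats2 held it in 1 of 2 windows, 5 bases after the start. No window of Tead2 or Lats1 held it. The AP-1 motif TGANTCA, present in 7.81% of all windows, and the CArG box bound by SRF, present in 1.63%, were in no window of these members, so no motif overlapped another. These matches describe letters in a window and do not show binding.

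Values are FPKM as deposited, that is, mapped fragments scaled by transcript length and sequencing depth. Each difference is the Tsc1cKO value less the control value after both are taken as log2(FPKM + 1), which understates the change of low genes. Counts past a fold threshold use this difference. A fold printed beside a gene's FPKM values is their plain ratio, so a gene can pass the threshold by that ratio and not be counted. A single library stood for each genotype, so there is no spread against which to judge a difference, and statements that a gene was higher or lower refer to the libraries alone. The depth of sequencing was unknown. Genes with at least 1 FPKM in either library, 12409 in number, were called measured, and their median difference was 0.20, so that most genes read slightly higher in Tsc1cKO. Centred differences, after dividing Tsc1cKO values by the median ratio of 1.17, are therefore given beside those as deposited. Centred counts and medians of a list keep its genes measured as deposited. Centred shares of all genes apply the minimum of 1 FPKM again after the division, which leaves 12296 genes. Tsc1 itself, which other cell types of the nerve also express, was at 3.76 FPKM in control and 2.28 FPKM in Tsc1cKO.

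Of the 10 members, 9 were measured and none differed by 2-fold in either direction, where 8.09% of all measured genes did. The same held when centred, where 7.53% of genes passed, 2.93% upward and 4.60% downward. Their differences ran from −0.60 for Tead3 to 0.63 for Tead2, with a median of 0.01. As deposited 5 were higher and 4 lower, where 67.0% of measured genes were higher and 33.0% lower. When centred 2 were higher, Wwtr1 and Tead2, and 7 lower, with a median of −0.21, where 49.7% of genes were higher and 50.3% lower. At 1.5-fold, which 25.3% of measured genes reached, Tead2 passed upward, as 17.8% of genes did, and Tead3 downward, as 7.53% did. When centred Tead3 alone of the members passed 1.5-fold, where 20.9% of genes did, 9.37% upward and 11.5% downward. The median size of a member's difference as deposited, regardless of sign, was 0.16, against 0.34 for all measured genes. The latter includes the upward shift of most genes as deposited, and neither size was computed after centring.

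**Figure D1:**
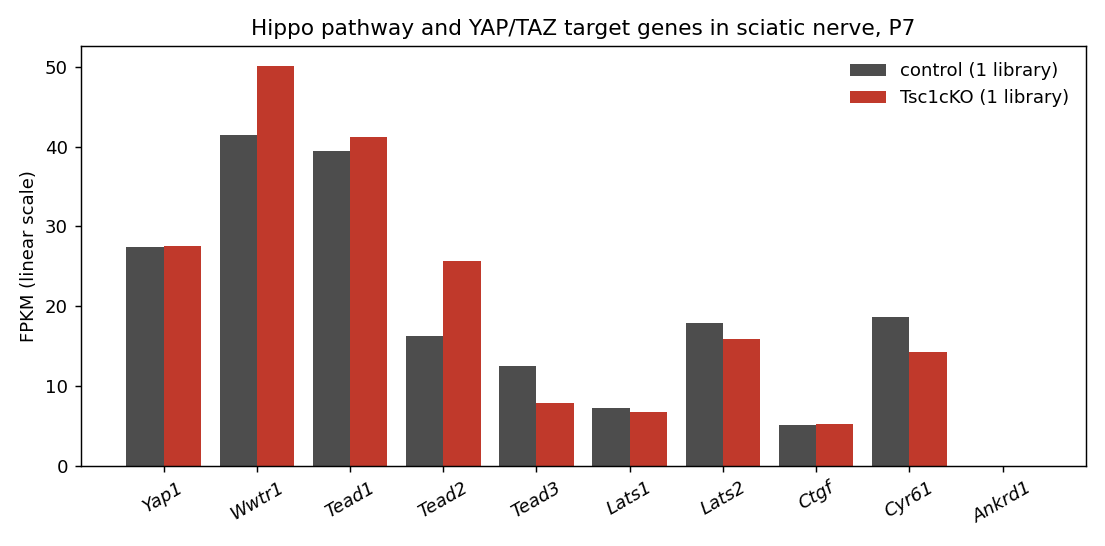
Bars give the FPKM of each of the 10 genes (linear axis from 0) in the control library (grey) and the Tsc1cKO library (red), 1 library each, so no error bars can be drawn. Wwtr1 and Tead1 stood highest in both libraries, Tead2 was higher and Tead3 lower in Tsc1cKO, and Ankrd1 was at or near 0.

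Wwtr1 had the highest level of the members in both libraries. It encodes TAZ and was at 41.5 FPKM in control and 50.1 FPKM in Tsc1cKO (chromosome 3, 57259565 to 57379832, mm9, as the tables give it). Its difference was 0.27 as deposited and 0.05 when centred, close to the median gene. Yap1, which encodes YAP, was at 27.5 FPKM in control and 27.6 FPKM in Tsc1cKO (chromosome 9, 7932000 to 8004596), a difference of 0.01 that became −0.21 when centred. Both coactivator genes stood in the upper range of measured genes in both libraries. Yap1 exceeded 79.7% of measured genes in control and 77.1% in Tsc1cKO, and Wwtr1 exceeded 86.6% and 87.1%. The level of Wwtr1 was 1.51 times that of Yap1 in control and 1.82 times in Tsc1cKO, a ratio that does not depend on how the libraries are scaled.

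The Tead genes, which encode the DNA-binding partners of YAP and TAZ, differed most among themselves. Tead1 was at 39.5 FPKM in control and 41.2 FPKM in Tsc1cKO (chromosome 7, 119822833 to 120050319), a difference of 0.06 that became −0.16 when centred. Tead2 was at 16.3 FPKM in control and 25.7 FPKM in Tsc1cKO (chromosome 7, 52471122 to 52488989), 1.58-fold higher. Its difference was 0.63, larger than that of 84.4% of measured genes, and 0.41 when centred. Tead2 is known from mouse embryos as the family member expressed early, in neural and other progenitors. Tead3 went the other way, at 12.5 FPKM in control and 7.91 FPKM in Tsc1cKO (chromosome 17, 28468617 to 28487750), 1.58-fold lower. Its difference of −0.60, −0.80 when centred, exceeded that of 7.24% of measured genes.

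Tead4, the remaining family member, which is not among the 10 genes, was at 4.99 FPKM in control and 2.25 FPKM in Tsc1cKO, 2.22-fold lower. Its difference was −0.88 as deposited and −1.04 when centred. The summed level of all 4 Tead genes was close in both libraries, at 73.3 and 77.0 FPKM, while its makeup differed. Tead1 supplied 53.9% of the control sum and 53.4% of the Tsc1cKO sum. The share of Tead2 was 22.2% in control and 33.4% in Tsc1cKO, that of Tead3 17.1% and 10.3%, and that of Tead4 6.81% and 2.92%. The ratio of Tead2 to Tead3 was 1.30 in control and 3.25 in Tsc1cKO, 2.50 times as high. These shares and ratios are independent of library scaling, but they carry no replicate error.

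**Figure D2:**
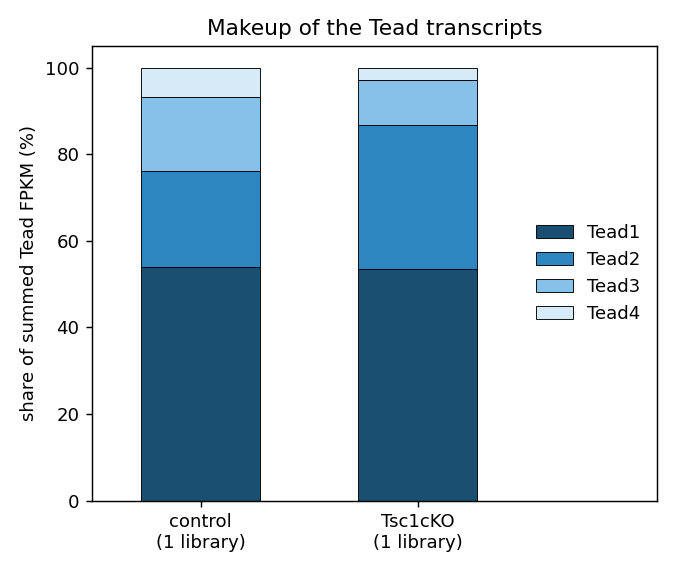
Stacked bars give the share of each Tead gene in the summed FPKM of Tead1 to Tead4 (percent) in the control and Tsc1cKO libraries, 1 library each. Tead1 holds 53.9% and 53.4%, while Tead2 goes from 22.2% to 33.4% and Tead3 and Tead4 take smaller shares in Tsc1cKO.

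The LATS kinases, which inhibit YAP and TAZ, were slightly lower in Tsc1cKO. Lats1 was at 7.29 FPKM in control and 6.69 FPKM in Tsc1cKO (chromosome 10, 7401006 to 7436259), with a difference of −0.11, −0.31 when centred. Lats2, which is itself induced by YAP and TAZ as part of a negative feedback, was at 17.9 FPKM in control and 15.9 FPKM in Tsc1cKO (chromosome 14, 58308498 to 58364960). Its difference was −0.16, −0.37 when centred. Lats2 was the more abundant kinase gene in both libraries, by 2.45 times in control and 2.37 times in Tsc1cKO. The summed level of Yap1 and Wwtr1 was 2.74 times that of Lats1 and Lats2 in control and 3.44 times in Tsc1cKO.

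The classical targets Ctgf and Cyr61 did not read higher together, and the other, Ankrd1, was not measured. Ctgf, encoding the matricellular protein CCN2, was at 5.16 FPKM in control and 5.18 FPKM in Tsc1cKO (chromosome 10, 24315247 to 24318488), a difference of 0.01 that became −0.18 when centred. Cyr61, encoding the related protein CCN1, was at 18.6 FPKM in control and 14.2 FPKM in Tsc1cKO (chromosome 3, 145309934 to 145312949), 1.31-fold lower. Its difference was −0.37, −0.58 when centred, and 12.6% of measured genes had a lower difference. Ankrd1, encoding a nuclear and sarcomeric repeat protein best known from heart and muscle, was at 0.0189 FPKM in control and listed at 0 in Tsc1cKO (chromosome 19, 36186454 to 36194334). It was therefore not measured in either library, and no fold is given. Cyr61 stood at 3.61 times the level of Ctgf in control and 2.74 times in Tsc1cKO.

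Ordered by level, the leading members were the same in both libraries, Wwtr1 before Tead1 before Yap1, and the lowest were Lats1, Ctgf and Ankrd1 in that order. In the middle the order was Cyr61, Lats2, Tead2 and Tead3 in control, and Tead2, Lats2, Cyr61 and Tead3 in Tsc1cKO. Without replicates it cannot be said which neighbours in this order differ beyond their spread. None of the 10 gene spans overlapped that of another gene in the tables.

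**Figure D3:**
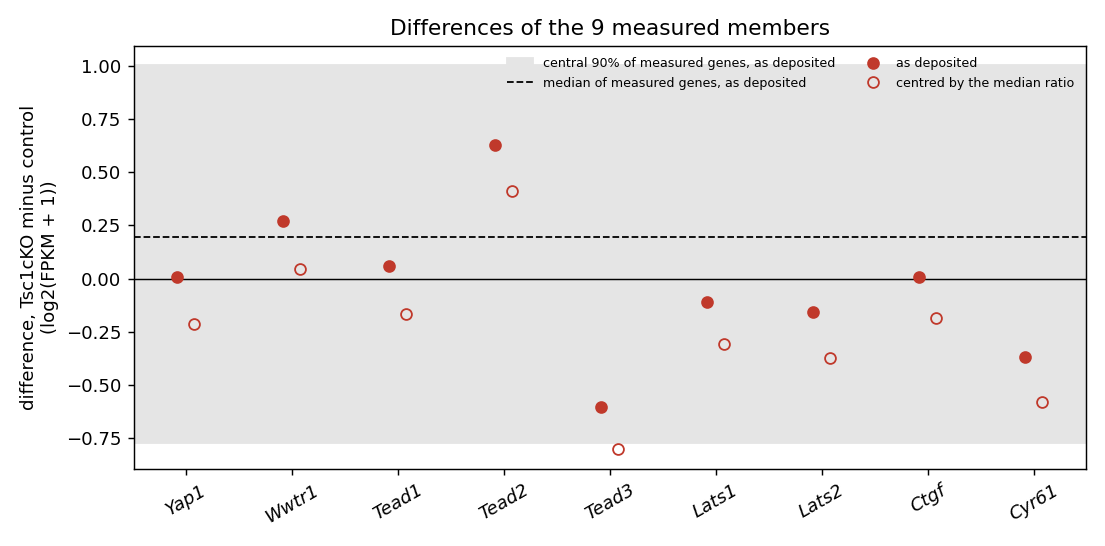
Points give the difference of each of the 9 measured members, on the log2(FPKM + 1) scale with positive values for genes higher in Tsc1cKO, as deposited (filled) and centred by the median ratio (open), with the central 90% of measured genes as deposited in grey and their median dashed at 0.20. The filled points all lie inside the grey band, and Tead2 and Tead3 lie farthest apart.

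Upstream genes of the pathway were split in direction as deposited and mostly lower when centred. A list of 25 genes covered MST kinases and their partners, NF2, the atypical cadherins, other kinases that act on LATS, LIM proteins and polarity proteins, and 24 were measured. As deposited 13 were higher and 11 lower, with a median difference of 0.04, where 33.0% of all measured genes were lower. When centred 6 were higher and 18 lower, with a median of −0.17, where 50.3% of genes were lower. None was 2-fold higher and 1 was 2-fold lower, where 5.03% and 3.06% of all measured genes were. That 1 gene was Jub, encoding Ajuba, a LIM protein that binds and restrains LATS kinases, at 13.7 FPKM in control and 5.65 FPKM in Tsc1cKO. Its difference was −1.14, −1.33 when centred. Wtip, of the same LIM family, was at 24.3 and 34.7 FPKM. Rassf1, which encodes a scaffold of the MST kinases, was at 27.9 FPKM in control and 54.9 FPKM in Tsc1cKO, a difference of 0.95, 0.73 when centred. Map4k4, a kinase gene whose product acts on LATS beside the MST kinases, was the most abundant of the list, at 107 and 156 FPKM.

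Genes listed as binding partners of TEAD, YAP and TAZ, other than the members, were mostly lower. Of 11 listed genes 9 were measured, 2 were higher and 7 lower, 3 of these by 2-fold (4 when centred), and the median difference was −0.36, −0.56 when centred. Of all measured genes 33.0% were lower and 3.06% were 2-fold lower as deposited, and 50.3% and 4.60% when centred. Vgll3, encoding a vestigial-like cofactor that competes for TEAD factors, was at 24.1 FPKM in control and 10.9 FPKM in Tsc1cKO, 2.21-fold lower. Sipa1l1, encoding a protein that inactivates the GTPase Rap, was at 18.6 and 8.01 FPKM. It was counted among the 2-fold lower genes, and its place on the list as a binding partner was not checked here. Tead4 belonged to the same list. Amotl2, whose product tethers YAP outside the nucleus, was at 30.7 and 24.2 FPKM. Vgll1 was listed at 0 in both libraries.

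Further target genes of YAP and TAZ went both ways. Of 18 genes from a signature known from human cancers, 17 were measured, 10 were higher and 7 lower as deposited, and 7 were higher and 10 lower when centred. The median difference was 0.08, −0.09 when centred, beside 0.20 for all measured genes as deposited. With the minimum of 1 FPKM applied again after centring, the list median was −0.13. Gadd45a, which encodes a stress and DNA damage protein and is induced by other pathways as well, was at 6.37 FPKM in control and 52.2 FPKM in Tsc1cKO, 8.20-fold higher. Axl, encoding a receptor tyrosine kinase, was at 33.5 FPKM in control and 79.3 FPKM in Tsc1cKO, a difference of 1.22, 0.99 when centred. Fjx1, related to the fly gene four-jointed, was at 14.9 FPKM in control and 33.1 FPKM in Tsc1cKO, a difference of 1.10, 0.88 when centred. These were the 3 genes of the list that were 2-fold higher as deposited on the log2(FPKM + 1) scale, as were 5.03% of all measured genes. When centred Gadd45a alone remained, where 2.93% of genes were 2-fold higher. Arhgef17, encoding a guanine nucleotide exchange factor, was the 1 gene that was 2-fold lower, both as deposited and when centred, where 3.06% and 4.60% of genes were, at 33.2 FPKM in control and 13.7 FPKM in Tsc1cKO, and its span contains that of a microRNA gene. Amotl2 and Ptpn14 stand on this list and on that of binding partners.

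**Figure D4:**
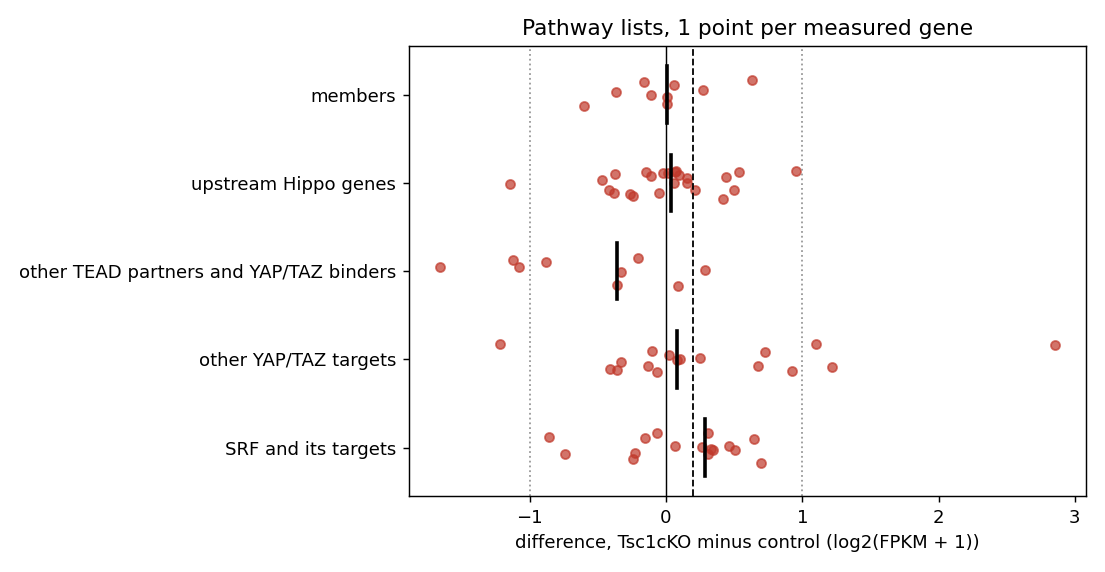
Each point is the difference of 1 measured gene, on the log2(FPKM + 1) scale with positive values for genes higher in Tsc1cKO, in each of 5 lists, with the list median as a black bar, the median of all measured genes dashed at 0.20 and 2-fold dotted. The members lie between −0.60 and 0.63, the binding partners lie mostly to the left, and Gadd45a stands alone at 2.85 among the targets.

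Ctgf and Cyr61 belong to the CCN family of matricellular proteins. Nov, which encodes CCN3, was the most abundant family member, at 66.4 FPKM in control and 49.6 FPKM in Tsc1cKO. Wisp1, which encodes CCN4, was at 17.5 FPKM in control and 7.30 FPKM in Tsc1cKO, a difference of −1.16. Wisp2 and Wisp3 did not reach 1 FPKM. Of the 4 measured CCN genes, 3 were lower as deposited, where 33.0% of all measured genes were. Ctgf was lower only when centred, where 50.3% of genes were.

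Schwann cell genes that published work ties to YAP, TAZ or TEAD1 differed by unequal amounts, from −2.74 for Pmp22 to −0.08 for Dag1. The list held 6 genes, of which 5 had usable values in both libraries. These 5 were all lower, where 33.0% of all measured genes were, and 3 of them by 2-fold, where 3.06% were (4.60% when centred). Pmp22, a compact myelin gene with an enhancer known to bind TEAD1 in rat, was at 15306 FPKM in control and 2287 FPKM in Tsc1cKO. Itga6, which encodes the laminin receptor integrin alpha6, was at 246 FPKM in control and 115 FPKM in Tsc1cKO. Dag1, encoding dystroglycan, another laminin receptor, was at 347 and 328 FPKM, and Itgb4 at 43.3 and 38.7 FPKM, although its span overlaps that of Galk1. Egr2, the master factor of myelination, was at 67.9 and 32.7 FPKM.

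Whole nerve was sequenced, so fewer cells of a type and less RNA per cell cannot be told apart in any of these values. The labelled tissue was borne out by Schwann cell markers, of which 4 were usable, Sox10, S100b and Erbb3 among them, and summed to 994 FPKM in control and 1410 FPKM in Tsc1cKO, 3 of 4 being higher. All 5 fibroblast markers were lower in Tsc1cKO, with sums of 7102 and 4797 FPKM, as were all 5 endothelial markers, with 106 and 83.6 FPKM, and all 4 perineurial markers, with 148 and 118 FPKM. Itgb4 stands on the perineurial list and on that of Schwann cell genes tied to YAP, TAZ or TEAD1. Smooth muscle and pericyte markers summed to 128 and 119 FPKM, with 3 of 5 higher, macrophage markers to 53.7 and 58.3 FPKM, with 4 of 5 higher, and adipocyte markers to 227 and 302 FPKM, with 4 of 4 higher. All 5 measured skeletal muscle markers were higher, and the 6 listed summed to 273 and 572 FPKM. Beside these counts, 67.0% of all measured genes were higher and 33.0% lower as deposited. No usable marker was at 0 in either library. Tead3, Tead4, Cyr61 and Wisp1 were thus lower beside lower fibroblast, endothelial and perineurial markers, and the part of these cells in the differences was not tested. When centred, 2 of 4 Schwann cell, 2 of 5 smooth muscle and pericyte, 2 of 5 macrophage and 2 of 4 adipocyte markers were higher. The directions of the fibroblast, endothelial, perineurial and skeletal muscle markers were as deposited. Among all measured genes 49.7% were higher and 50.3% lower when centred. Ankrd1 was at or near 0 in both libraries, although skeletal muscle markers were present in both.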

How the data were processed

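Trizol-extracted RNA was made into Illumina TruSeq libraries, per the labels' protocols. Per the file headers, the authors deposited FPKM per gene and a status for each value, in a separate table for each library. The submitters' processing notes give CASAVA, TopHat, Cufflinks and the build mm9, with no version, and strand use is not given in the sources used here. Each table held 22532 entries. Entries sharing a symbol were summed (227 symbols, 22096 in all), and 3 genes with a failed estimate were left out. FPKM are not counts, and depth was unknown. Differences used a pseudocount of 1, a minimum of 1 FPKM in either library and a threshold of 2-fold (pandas 2.3.3, numpy 2.4.6). No test was possible with 1 library per group. The calculation was tested on simulated data. Groups followed the genotype label. The members and the 14 other lists, compiled from general knowledge, were chosen with earlier results of these data known. Genes named from a list were the 4 with the largest difference in size and the most abundant, and Dag1, Ptpn14, Vgll1, Wisp2 and Wisp3 were added after their values were seen. Some genes that meet the rule are not reported here. Promoter sequences are from RefSeq, GRCm38.p6, whose coordinates are not comparable with the mm9 spans of the genes.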

Additional observations from a re-analysis of the deposited data

How the results depend on the processing

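No paired analysis was possible because there was 1 library per group, and no replicate could be left out. The count of members past 2-fold was 0 under pseudocounts of 0.1 and 5, each scaling, no filter, a filter of 5 FPKM and a threshold of 3-fold, and was 2 at 1.5-fold. The median difference of the members, 0.0054 as deposited, was 0.0056 with a pseudocount of 0.1, 0.0035 with one of 5, −0.011 with no filter, and −0.214, −0.176 and −0.208 after scaling by the median ratio, the upper quartile and a trimmed mean. Of the 9 settings run on single genes, only the 3 scalings could change the direction of a member. Under all 3, Wwtr1 and Tead2 stayed higher and Tead3, Lats1, Lats2 and Cyr61 lower, while Yap1, Tead1 and Ctgf turned from higher to lower. Taking the highest entry per symbol, or keeping failed values as listed (chosen after seeing the data), changed no member's value. Without replicates or depth, no error can be put on any difference.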

Other observations

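SRF is a transcription factor whose coactivators respond to actin, and it shares targets such as Ctgf and Cyr61 with YAP and TAZ. Of 16 listed genes of SRF, its coactivators and its targets, all 16 were measured, and 10 were higher and 6 lower as deposited (9 and 7 when centred). Among all measured genes 67.0% were higher and 33.0% lower as deposited, and 49.7% and 50.3% when centred. The median difference of the list was 0.29 as deposited, beside 0.20 for all measured genes, and 0.07 when centred. With the minimum of 1 FPKM applied again after centring, it was 0.06. Tpm1, encoding a tropomyosin, was at 171 FPKM in control and 278 FPKM in Tsc1cKO, and Actg2, encoding a smooth muscle actin, at 3.46 and 5.98 FPKM. Myl9, encoding a myosin light chain, was at 152 FPKM in control and 83.3 FPKM in Tsc1cKO, and Tagln, encoding transgelin, at 51.5 and 30.4 FPKM, although its span overlaps that of Pcsk7. Actg1, encoding a cytoplasmic actin, was the most abundant, at 858 and 1079 FPKM. No gene of this list was 2-fold higher or lower as deposited, where 8.09% of all measured genes were. When centred Myl9 was 2-fold lower, where 4.60% of genes were.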
